A study of Homo sapiens with 8 samples.

Results

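The genes described here encode the cytoplasmic side of the N-cadherin (CDH2) adherens junction: the catenins *CTNNB1*, *JUP*, *CTNND1*, *ARVCF* and *CTNNA1*, and the actin-linked partners *VCL* and *AFDN*. They were chosen by name, all 7 had a row, and they are 7 of the 12939 genes tested. The cells were MDA-MB-231, a triple-negative and mesenchymal human breast cancer line, carrying a stable pOct4a-GFP reporter in every group. All lines also carried a stable red fluorescent shRNA vector, which expressed scramble shRNA (3 libraries), CDH2 shRNA (3 libraries) or Cx43 shRNA (2 libraries). Cancer stem cells (CSCs) were sorted from each line as cells bright in both GFP and RFP, kept overnight, and taken for ribosomal-RNA-depleted RNA sequencing. All lines were stable transfectants selected with puromycin, and for CDH2 shRNA a clone was chosen for its knockdown efficiency. Differences between lines or clones and effects of knockdown therefore cannot be told apart in either knockdown group. Nothing in the labels ties the libraries of a group to separate cultures. The p-values rest on the spread left between these libraries after the authors' run correction and a term for replicate number. That spread may be technical. *CDH2* and *GJA1*, the Cx43 gene, have no row in the tables used, so the knockdowns themselves were not analysed here.

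Classical cadherins hold neighbouring cells together through their extracellular domains, and their tails bind catenins inside the cell. β-catenin (*CTNNB1*) or its close relative plakoglobin (*JUP*) binds the distal part of the tail and recruits α-catenin (*CTNNA1*), which reaches actin directly and through vinculin (*VCL*) and afadin (*AFDN*). p120-catenin (*CTNND1*) and its relative *ARVCF* bind nearer the membrane and keep cadherin at the cell surface. β-catenin released from the junction can enter the nucleus and act with TCF/LEF factors in Wnt signalling. In mesenchymal carcinoma cells N-cadherin commonly takes the place of E-cadherin at such contacts.

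The label of the line was checked first. Of 8 mesenchymal markers 7 had a row, and their summed level was 2330 to 2490 CPM (read counts scaled to the size of the library) in scramble, 2450 to 2770 in CDH2 shRNA and 2160 to 2360 in Cx43 shRNA libraries. Of 10 epithelial or hormone receptor markers 4 had a row, at 120 to 121, 97.6 to 104 and 114 to 123 CPM in the same order. *CDH1* (E-cadherin), *ESR1* and *PGR* were among those without a row. Of 8 marrow stroma markers 2 had a row (53.7 to 66.3, 40.4 to 52.6 and 29.6 to 40.2 CPM), and of 6 blood markers 1 had a row (17.1 to 17.5, 17.5 to 21.5 and 12.6 to 15.9 CPM). The part of these shifts in the results below was not tested.

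The scramble libraries did not vary freely. Scramble replicate 1 lay between replicates 2 and 3 in 96.5% of genes and in all 7 genes described here. Its median distance from the group mean was 0.00361 on the log2 scale, against 0.0959 and 0.0955 for the other two. After the authors' correction for sequencing run, the deviations of libraries with the same replicate number from their group means summed to at most 0.0001. A low scramble value at replicate number 3 is therefore tied to a high CDH2 shRNA value there, and the reverse.

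By level per kilobase of exon, the genes ranked in scramble CSCs from *CTNNA1* at 43.5 ± 3.82 CPM per kb (SD, n = 3) and *CTNNB1* at 32.6 ± 2.58 through *VCL* at 19.6 ± 2.71. *CTNND1* at 9.52 ± 1.6 and *AFDN* at 9.3 ± 0.833 CPM per kb did not differ beyond their spread. *JUP* followed at 4.39 ± 0.333 and *ARVCF* was lowest at 0.816 ± 0.116 CPM per kb. β-catenin transcripts thus stood far above those of plakoglobin, and p120-catenin transcripts far above those of *ARVCF*. In CDH2 shRNA CSCs the order was *CTNNA1* 41.3, *CTNNB1* 31.9, *VCL* 29.1, *AFDN* 12.1, *CTNND1* 11.8, *JUP* 2.83 and *ARVCF* 1.11 CPM per kb. In Cx43 shRNA CSCs it was 44.5, 35.3, 23.4, 11.2, 10.4, 2.94 and 1.39 CPM per kb for the same genes. The only exchange of places was between *CTNND1* and *AFDN*, and it did not occur when the longest transcript served as the length. *VCL* stood next to *CTNNB1* in every group, and in CDH2 shRNA CSCs the ranges of these neighbours met, at 25.1 to 34.2 for *VCL* and 29.3 to 34.5 CPM per kb for *CTNNB1*. The low pair, *JUP* and *ARVCF*, also had the most GC-rich longest transcripts, at 61.5% and 66.0% GC against 41.0% to 47.8% for the other 5. Correction for length and GC content moved the log2 differences of both from scramble upward in CDH2 shRNA CSCs. That of *JUP* went from -0.60 to -0.47 and that of *ARVCF* from 0.37 to 0.50.

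**Figure D1:**
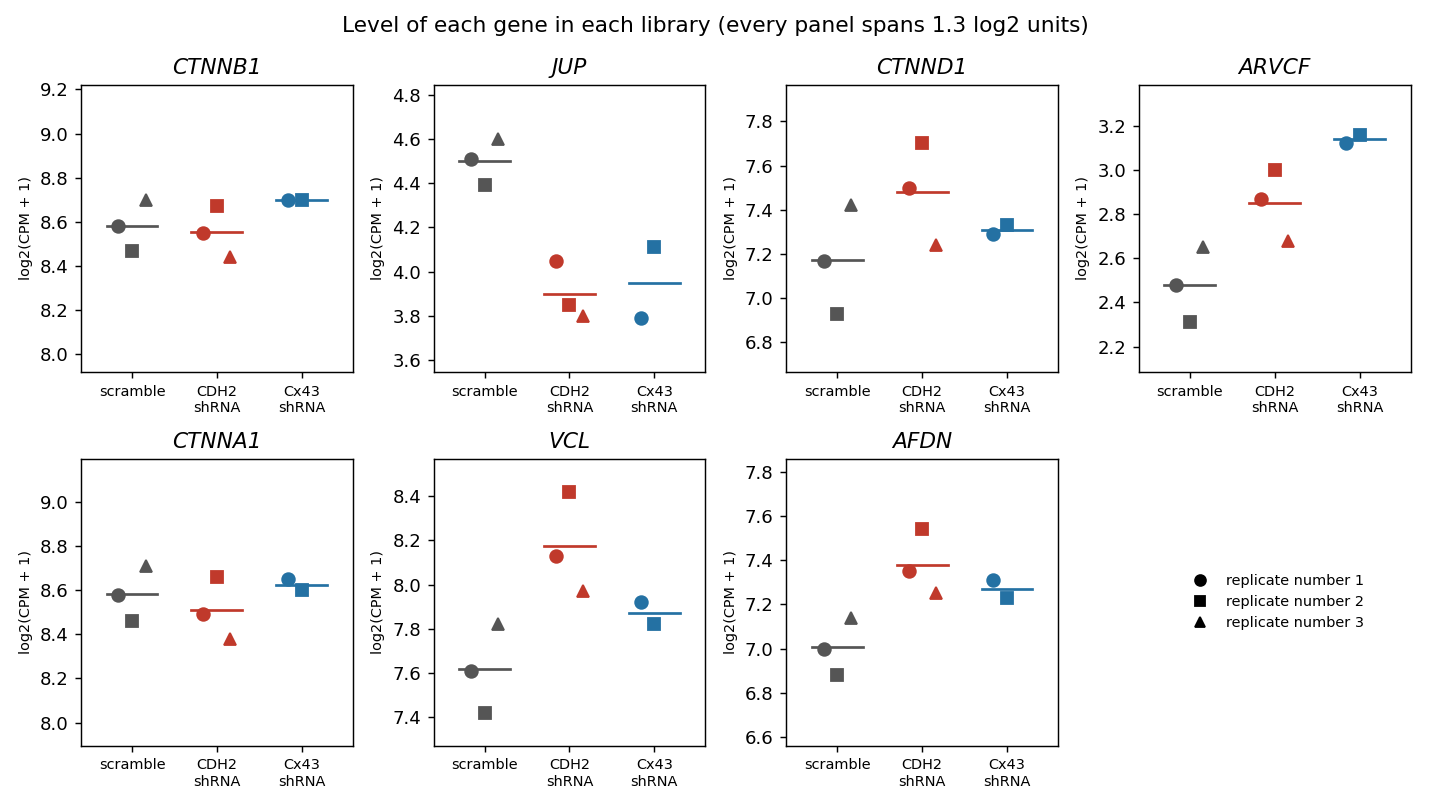
Level of the 7 genes in each library as log2(CPM + 1) on the y axis, by group on the x axis; symbols mark replicate numbers and horizontal lines the group means (n = 3, 3 and 2). *JUP* lies lower and *ARVCF*, *VCL* and *AFDN* lie higher in every knockdown library than in the scramble libraries, with *VCL* in Cx43 shRNA replicate 2 level with scramble replicate 3 at 7.82.

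Plakoglobin was the one gene of the 7 that passed the test. *JUP* (chromosome 17, 41754604 to 41786931, minus strand, hg38) read 4.51, 4.39 and 4.60 on the log2(CPM + 1) scale in scramble replicates 1 to 3. It read 4.05, 3.85 and 3.80 in CDH2 shRNA and 3.79 and 4.11 in Cx43 shRNA libraries. Every knockdown library lay below every scramble library, and the 2 knockdown groups overlapped. In the CDH2 knockdown *JUP* fell by 0.60 on the log2 scale (SE 0.13, 95% interval -0.92 to -0.27, adjusted p = 0.0406, limma with Benjamini-Hochberg adjustment over all genes), to 66% of the scramble level. In sorted bulk cells, fewer cells with the transcript and less of it per cell cannot be told apart. The fall of 1.51-fold was below the fold threshold applied in the study. In the Cx43 knockdown the difference was -0.55 (SE 0.16, interval -0.93 to -0.17, adjusted p = 0.134), which did not pass. It was -0.31 without Cx43 shRNA replicate 1 and -0.79 without replicate 2, neither of which passed, and it passed in 5 of 16 alternatives, among them without either replicate 3 library (-0.50, adjusted p = 0.0269) and without scramble replicate 2 (-0.66, 0.0491). The knockdowns differed from each other by -0.05 (interval -0.43 to 0.33, adjusted p = 0.883). By replicate number, the CDH2 pairs gave -0.46, -0.54 and -0.80 and the Cx43 pairs -0.72 and -0.28. The CDH2 call did not hold without scramble replicate 1 (difference -0.59, adjusted p = 0.194), without CDH2 shRNA replicate 1 (-0.72, 0.101) or 2 (-0.56, 0.136), or without either Cx43 library (-0.60, 0.0588). It was also lost after a correction for transcript length and GC content (-0.47, adjusted p = 0.0807).

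Of all genes, 6.98% were called lower and 7.29% higher in the CDH2 knockdown, and 2.06% passed the fold threshold too, against 1 lower, 0 higher and 0 past the fold threshold among the 7. In the Cx43 knockdown 0.788% of genes were called lower, 0.417% higher and 1.18% passed the 1.5-fold threshold, against 0 of the 7 under each rule. Unadjusted limma p-values were under 0.05 for 4 of the 7 genes in the CDH2 and 2 in the Cx43 comparison, against 37.5% and 21.6% of all genes. The median log2 fold change of the 7 was 0.31 against 0.01 over all genes in the CDH2 knockdown, and 0.14 against 0.04 in the Cx43 knockdown. Between the knockdowns it was -0.05 against -0.03, and limma called 0% of all genes in that direct comparison, although 2591 genes had an unadjusted p under 0.05, none of them among the 7.

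Transcripts of β-catenin, which shares its place on the cadherin tail with plakoglobin, stayed within the spread of their replicates. Protein was not measured here. The paper's blot of CSC extracts showed less β-catenin protein in the Cx43 knockdown and no change in the CDH2 knockdown. *CTNNB1* (chromosome 3, 41194741 to 41260096, plus strand) read 8.58, 8.47 and 8.70 in scramble, 8.55, 8.67 and 8.44 in CDH2 shRNA and 8.70 and 8.70 in Cx43 shRNA libraries. Scramble and CDH2 shRNA values overlapped almost fully. The differences were -0.03 (interval -0.29 to 0.22, adjusted p = 0.837) for CDH2 and 0.12 (interval -0.18 to 0.42, adjusted p = 0.619) for Cx43 shRNA, so the CDH2 interval leaves room for changes of up to about 0.29 in size. Within a library, where differences in scaling largely drop out, *CTNNB1* exceeded *JUP* by 4.07 to 4.10 log2 units in scramble. The 1 added to CPM before the logarithm keeps this from being exact, most of all for genes of low level. The same difference was 4.49 to 4.82 in CDH2 shRNA and 4.58 to 4.92 in Cx43 shRNA libraries. Neither knockdown range reached the scramble range, which largely restates the lower *JUP* values. For such differences an exact permutation test could not go below p = 0.1 at these group sizes, so they are given as a description with no test. Single genes also often separated the groups, 51.9% of all genes in the CDH2 and 52.8% in the Cx43 comparison.

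**Figure D2:**
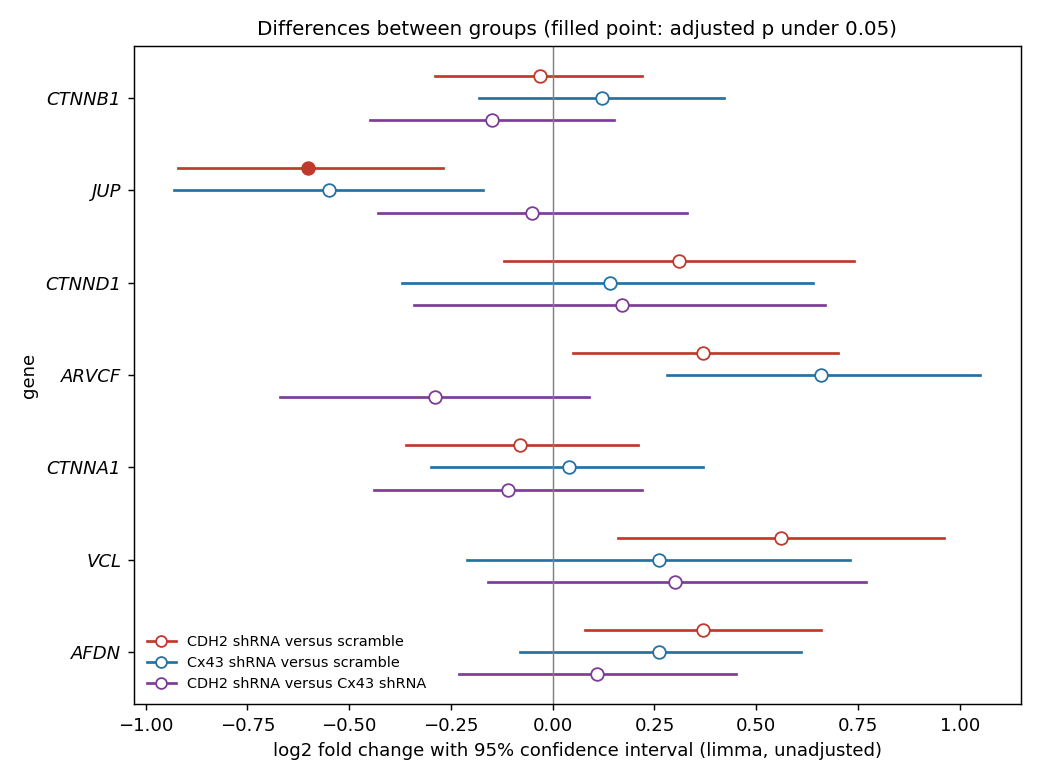
log2 fold change (x axis) of each gene (y axis) in the 3 comparisons, with 95% confidence intervals from limma; a filled point has an adjusted p under 0.05. The single filled point is *JUP* in CDH2 shRNA versus scramble at -0.60, and the *JUP* difference between the knockdowns is centred near 0, at -0.05.

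Transcripts of p120-catenin and ARVCF, the relatives that bind near the membrane, were both higher on average in each knockdown, and neither passed the test. *CTNND1* (chromosome 11, 57753243 to 57819546, plus strand) read 7.17, 6.93 and 7.42 in scramble, 7.50, 7.70 and 7.24 in CDH2 shRNA and 7.29 and 7.33 in Cx43 shRNA libraries. The groups overlapped, and the CDH2 pairs gave 0.33, 0.77 and -0.18 by replicate number. Its difference was 0.31 (SE 0.17, interval -0.12 to 0.74, adjusted p = 0.248) for CDH2 and 0.14 (SE 0.20, interval -0.37 to 0.64, adjusted p = 0.731) for Cx43 shRNA. Without either replicate 3 library the CDH2 difference was 0.55 and passed (adjusted p = 0.00564), and without replicate 2 of CDH2 shRNA or of scramble it was 0.13 or 0.11. Without scramble replicate 2 the Cx43 difference was -0.10. Correcting for length and GC content left 0.07 in either knockdown. Annotated protein-coding genes on the same strand share 5952 and 1926 exonic bases with *CTNND1*, so its value may include their reads.

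*ARVCF* (chromosome 22, 19969896 to 20016823, minus strand) was the least abundant of the 7 and had the largest difference in the Cx43 knockdown. It read 2.48, 2.31 and 2.65 in scramble, 2.87, 3.0 and 2.68 in CDH2 shRNA and 3.12 and 3.16 in Cx43 shRNA libraries. The groups did not overlap, although CDH2 shRNA replicate 3 exceeded scramble replicate 3 by only 0.03. The difference was 0.66 (SE 0.15, interval 0.28 to 1.05, adjusted p = 0.102) for Cx43 and 0.37 (SE 0.13, interval 0.05 to 0.70, adjusted p = 0.101) for CDH2 shRNA. Neither value passed, and the knockdowns differed by -0.29 (interval -0.67 to 0.09, adjusted p = 0.347). Without either replicate 3 library both passed, at 0.75 (adjusted p = 0.00168) for Cx43 and 0.54 (adjusted p = 0.00437) for CDH2 shRNA, and without replicate 2 of CDH2 shRNA or of scramble the CDH2 difference was 0.25 or 0.24. Within a library, *CTNND1* exceeded *ARVCF* by 4.62 to 4.77 in scramble, 4.56 to 4.70 in CDH2 shRNA and 4.17 in both Cx43 shRNA libraries. The Cx43 values lay below those of both other groups, which overlapped each other. The 2 Cx43 libraries give no test of this. At the low level of *ARVCF* the 1 added to CPM before the logarithm also compresses its differences. With 0.1 added in its place they were 0.44 for CDH2 and 0.77 for Cx43 shRNA, and neither passed.

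**Figure D3:**
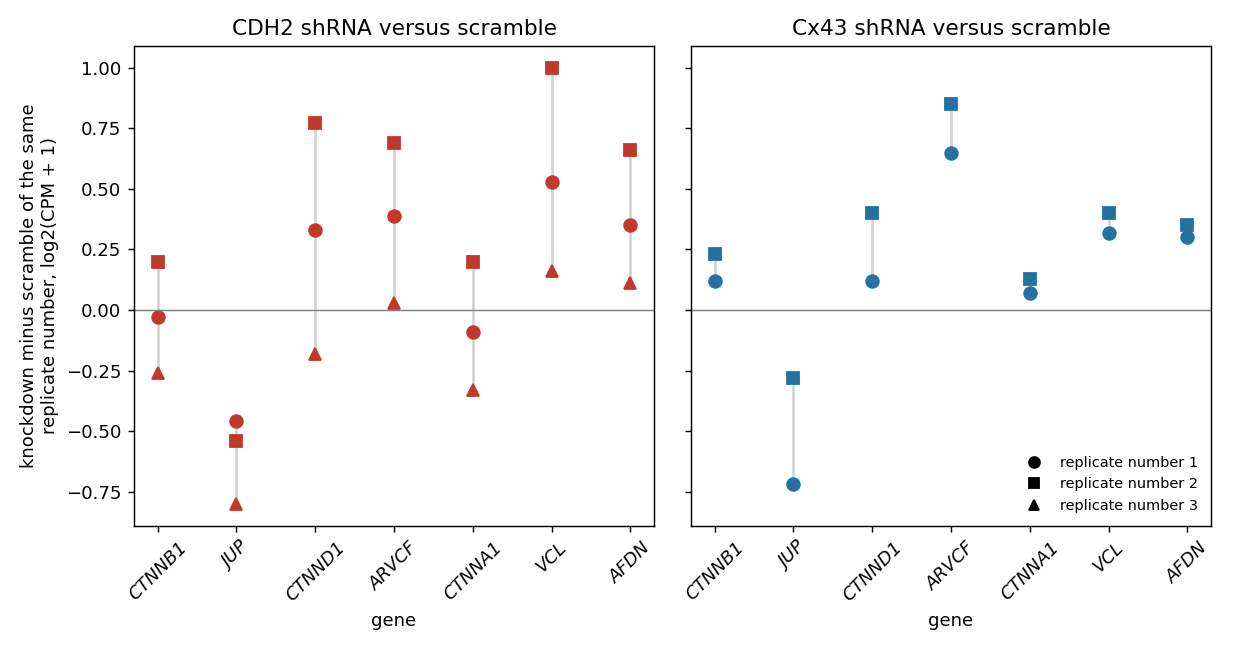
Knockdown minus scramble of the same replicate number in log2(CPM + 1) (y axis) for each gene (x axis), CDH2 shRNA on the left and Cx43 shRNA on the right. In the CDH2 panel replicate 2 is the highest and replicate 3 the lowest pair of every gene except *JUP*, where replicate 1 is the highest at -0.46.

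α-catenin carries the load from β-catenin to actin, and vinculin joins it when the junction is under tension. *CTNNA1* (chromosome 5, 138610967 to 138935034, plus strand) read 8.58, 8.46 and 8.71 in scramble, 8.49, 8.66 and 8.38 in CDH2 shRNA and 8.65 and 8.60 in Cx43 shRNA libraries. Its differences of -0.08 (interval -0.36 to 0.21, adjusted p = 0.655) and 0.04 (interval -0.30 to 0.37, adjusted p = 0.903) were smaller than the spread within scramble. *LRRTM2* and *CTNNA1-AS1*, on the opposite strand and without a row, share 445 and 75 exonic bases with it. On the log2(CPM + 1) scale *CTNNB1* minus *CTNNA1* lay between -0.02 and 0.10 in all 8 libraries. It was -0.02 to 0.01 in scramble, 0.01 to 0.06 in CDH2 shRNA and 0.06 to 0.10 in Cx43 shRNA libraries, so that the Cx43 range lay above scramble by a small margin.

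*VCL* (chromosome 10, 73995193 to 74121363, plus strand) read 7.61, 7.42 and 7.82 in scramble and 8.13, 8.42 and 7.97 in CDH2 shRNA libraries, which did not overlap. In Cx43 shRNA libraries it read 7.92 and 7.82, and the lower of these exceeded scramble replicate 3 by less than the rounding shows. The CDH2 difference of 0.56, or 148% of scramble, did not pass (SE 0.16, interval 0.16 to 0.96, adjusted p = 0.0675), nor did the Cx43 difference of 0.26 (SE 0.19, interval -0.21 to 0.73, adjusted p = 0.477). The CDH2 pairs gave 0.53, 1.00 and 0.16 by replicate number, and the Cx43 pairs 0.32 and 0.40. Leaving out 1 library moved the CDH2 difference between 0.37 and 0.76, and it passed without either replicate 3 library (adjusted p = 0.00129). The Cx43 difference was 0.06 without scramble replicate 2. Correction for length and GC content lowered the CDH2 difference to 0.36 (adjusted p = 0.0751). *AP3M1*, whose exons overlap *VCL* by 1109 bases on the opposite strand, differed in the same direction, by 0.45 (adjusted p = 0.0626) and 0.55 (adjusted p = 0.121). Whether the counting used strand is not given in the sources used here, and the part of this overlap in the *VCL* values was not tested.

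The level of *CTNNA1* relative to *VCL* was lowest in the CDH2 shRNA libraries. *CTNNA1* exceeded *VCL* within a library by 0.90 to 1.04 log2 units in scramble, 0.72 to 0.77 in Cx43 shRNA and 0.24 to 0.41 in CDH2 shRNA libraries. No ranges overlapped, which at these sizes is a description with no test. The shift in CDH2 shRNA libraries largely restates the higher *VCL* values, which did not pass. Single genes also separated the groups often, 51.9% of all genes for CDH2, 52.8% for Cx43 shRNA and 50.8% between the knockdowns. The mean difference in CDH2 shRNA CSCs was -0.64 against scramble and -0.42 against Cx43 shRNA CSCs.

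**Figure D4:**
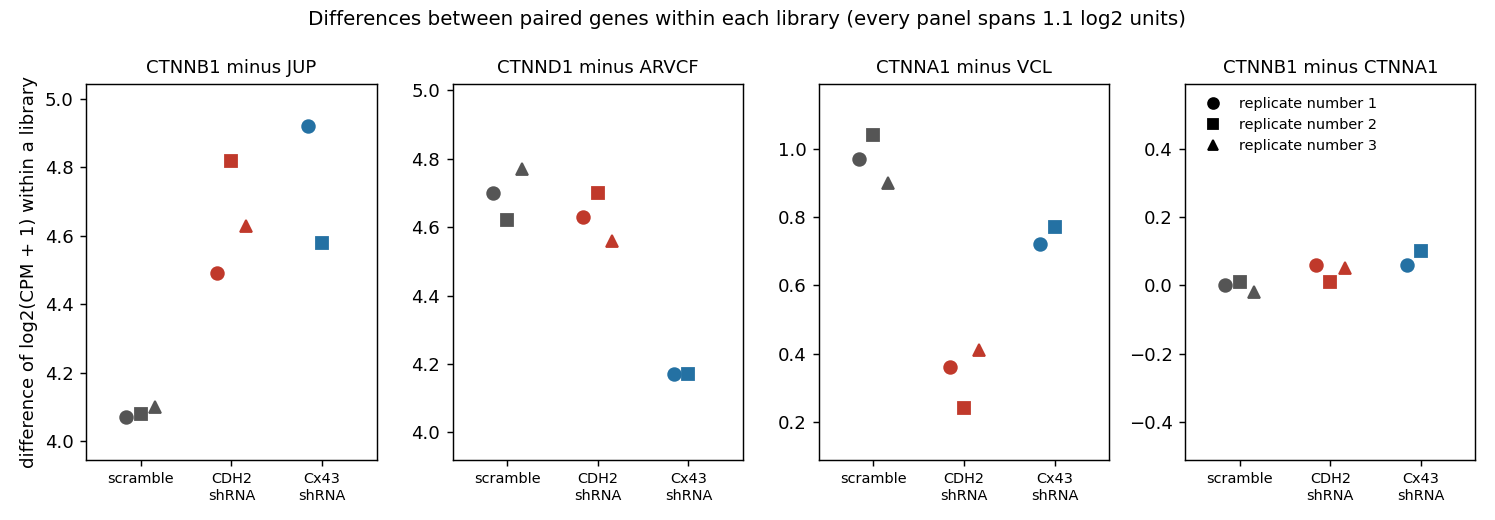
Differences between pairs of genes within a library in log2(CPM + 1) (y axis) by group (x axis), with symbols for replicate numbers. *CTNNA1* minus *VCL* is 0.90 to 1.04 in scramble and 0.24 to 0.41 in CDH2 shRNA libraries, and *CTNNB1* minus *CTNNA1* is -0.02 to 0.01 in scramble and 0.06 to 0.10 in Cx43 shRNA libraries.

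Afadin links α-catenin and actin to the nectins, a second family of adhesion molecules. *AFDN* (chromosome 6, 167826893 to 167972023, plus strand) read 7.0, 6.88 and 7.14 in scramble, 7.35, 7.54 and 7.25 in CDH2 shRNA and 7.31 and 7.23 in Cx43 shRNA libraries. All 5 knockdown libraries lay above the scramble libraries. The differences of 0.37 (SE 0.12, interval 0.08 to 0.66, adjusted p = 0.0819) and 0.26 (SE 0.14, interval -0.08 to 0.61, adjusted p = 0.328) did not pass. Leaving out 1 library moved the CDH2 difference between 0.24 and 0.50, and it passed without either replicate 3 library (adjusted p = 0.00685). The Cx43 difference moved between 0.14, without scramble replicate 2, and 0.33. Correction for length and GC content lowered the CDH2 difference to 0.20 (adjusted p = 0.111).

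Groups that do not overlap were common in these data. *VCL*, *AFDN* and *ARVCF* were higher and *JUP* lower than scramble without overlap in each knockdown, that is 3 of 7 higher and 1 of 7 lower. Over all genes, 27.1% were higher and 24.8% lower without overlap in the CDH2 knockdown, and 31.4% and 21.4% in the Cx43 knockdown. Both comparisons use the same scramble libraries, so that the same 4 genes appear in each is no separate observation.

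Stretches before RefSeq starts of the genes were read because members differed from scramble in both directions. Each is the 250 bases before the start that RefSeq gives (GRCh38.p14). These starts differ from the outermost GENCODE gene ends given here, so the *AFDN* and *ARVCF* stretches lie inside, and the *JUP* stretch mostly inside, the GENCODE gene bounds. A start was found for 6 of the 7 genes, and only 1 start per gene was read, so any other start was not searched. *JUP*, *AFDN* and *ARVCF* are shown as the gene that fell and the 2 whose stretch held the E-box. Capitals mark that motif, CAGGTG or its reverse complement CACCTG, a sequence bound by ZEB and SNAIL family repressors. The *JUP* stretch lies at chr17:41786712-41786961 (minus strand), the *AFDN* stretch at chr6:167827385-167827634 (plus strand) and the *ARVCF* stretch at chr22:19987197-19987446 (minus strand).
JUP: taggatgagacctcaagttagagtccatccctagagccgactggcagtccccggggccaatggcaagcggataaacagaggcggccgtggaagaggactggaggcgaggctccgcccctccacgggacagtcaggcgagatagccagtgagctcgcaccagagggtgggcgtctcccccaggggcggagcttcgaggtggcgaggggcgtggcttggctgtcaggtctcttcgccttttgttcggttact
AFDN: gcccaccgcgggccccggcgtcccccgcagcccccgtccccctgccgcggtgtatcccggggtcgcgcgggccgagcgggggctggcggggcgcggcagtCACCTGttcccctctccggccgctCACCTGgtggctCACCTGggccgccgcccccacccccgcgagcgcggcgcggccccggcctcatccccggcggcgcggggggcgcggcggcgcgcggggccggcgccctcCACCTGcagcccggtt
ARVCF: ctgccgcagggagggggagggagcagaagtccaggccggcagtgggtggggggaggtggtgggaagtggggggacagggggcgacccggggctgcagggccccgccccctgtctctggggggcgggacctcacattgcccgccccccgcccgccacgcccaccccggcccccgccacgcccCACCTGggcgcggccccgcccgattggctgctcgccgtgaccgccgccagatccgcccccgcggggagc
The *AFDN* stretch held 4 E-boxes and that of *ARVCF* 1, and none was found for *JUP*, *CTNNB1*, *CTNNA1* or *VCL*, whereas 17.5% of 35116 promoters of this length held at least 1. The TCF/LEF core CTTTGA (11.2% of promoters, both strands) and the CArG box (1.16%) were found in none of the 6. *ZEB1*, which encodes a repressor that binds this E-box, differed by 0.53 (limma adjusted p = 0.0643) in CDH2 and 0.29 (adjusted p = 0.391) in Cx43 shRNA CSCs. *SNAI2* differed by -0.01 (adjusted p = 0.952) and -0.37 (adjusted p = 0.192). *TCF3*, read alongside them, differed by 0.20 (adjusted p = 0.15) and 0.58 (adjusted p = 0.0669). From gene set enrichment, the paper names Zeb1 among genes decreased in both knockdowns. The *ZEB1* differences here were positive but did not pass, and a gene set result is another measure than a single-gene difference. The paper's follow-up blots found negligible change of Zeb1 protein in unsorted cells. In CSC extracts they showed a faint doublet with scramble and with either knockdown. The motif matches describe letters only.

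Other genes of the junction were followed in lists of their roles, with 93 genes measured. In the CDH2 knockdown 11 of the 93 were called higher and 1 lower (12.9% in all), slightly below the 14.3% of all genes called in either direction, with a median log2 fold change of 0.14 against 0.01 over all genes. In the Cx43 knockdown and the direct comparison 0 of 93 were called by limma, with medians of 0.05 and 0.08. An unadjusted p under 0.05 was found for 18 (19.4%) and 15 (16.1%) of them, against 21.6% and 20% of all genes. The 12 calls fell to 0 when any of 5 libraries was left out (scramble replicate 1, CDH2 shRNA replicates 1 and 2, and either Cx43 shRNA library). They fell to 7 without scramble replicate 2, and rose to 40 without the replicate 3 library of CDH2 shRNA or of scramble.

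Among genes of the β-catenin destruction complex and of nuclear partners of β-catenin, 4 of 17 were called higher in the CDH2 knockdown and none lower. Over all genes, 7.29% were called higher and 6.98% lower. *APC*, the scaffold of the destruction complex, rose by 0.64 (SE 0.15, adjusted p = 0.0449) and *AMER1*, which brings APC to the membrane, by 0.50 (SE 0.08, adjusted p = 0.0253). *TCF7L2*, a DNA-binding partner of nuclear β-catenin, rose by 0.44 (adjusted p = 0.0419) and the coactivator *CREBBP* by 0.41 (adjusted p = 0.0446). Among the other catenin and armadillo genes 3 of 6 were called, against 14.3% of all genes. With so few genes in a list, these counts are a description and were not tested against that share. *CTNNBIP1*, whose product keeps β-catenin from TCF factors, fell by 0.54 (SE 0.08, adjusted p = 0.0215). *PKP2* and *PKP4*, plakophilin genes of the p120 family, rose by 0.58 (adjusted p = 0.03) and 0.38 (adjusted p = 0.0427). In Cx43 shRNA CSCs the largest values in these lists were *PYGO1* at 0.56 (adjusted p = 0.0995) and *PKP3* at 0.42 (adjusted p = 0.0893).

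Plakoglobin also sits in desmosomes, and none of its 3 measured desmosome partners passed. *DSG2*, a desmosomal cadherin, read 4.58, 4.30 and 4.89 in scramble and 5.31, 5.70 and 5.05 in CDH2 shRNA libraries, a difference of 0.76 (SE 0.22, adjusted p = 0.0696). *DSP* (desmoplakin) differed by 0.56 (adjusted p = 0.0817) and *PERP* by -0.13 (adjusted p = 0.401). In Cx43 shRNA CSCs *DSG2* differed by 0.38 (adjusted p = 0.451). The values of *DSG2* and *DSP* lay above every scramble library in both knockdowns, while *PERP* overlapped scramble in CDH2 shRNA libraries. In Cx43 shRNA libraries the margins were small, with *DSP* at 6.95 and 6.93 against 6.92 in scramble replicate 3. Such separation, in either direction, was found for 51.9% of all genes in the CDH2 and 52.8% in the Cx43 comparison.

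Of 19 actin linkers 2 rose in the CDH2 knockdown, near the 7.29% of all genes: *RAVER1*, which encodes a vinculin-binding ribonucleoprotein, by 0.59 (adjusted p = 0.0269), and *ENAH*, an actin filament elongation factor, by 0.42 (adjusted p = 0.0308). In Cx43 shRNA CSCs the largest difference in this list was *ZYX* (zyxin) at -0.42 (adjusted p = 0.229). Of 14 genes for partners of p120-catenin and small GTPases 2 rose, *ECT2*, a guanine nucleotide exchange factor, by 0.52 (adjusted p = 0.0221) and *DIAPH1*, an actin-nucleating formin, by 0.40 (adjusted p = 0.0324). *ECT2* differed by 0.50 in Cx43 shRNA CSCs as well (adjusted p = 0.0669). Of 17 genes for junction kinases, phosphatases and turnover 1 rose, *CBLL1*, which encodes the ubiquitin ligase Hakai, by 0.32 (adjusted p = 0.0418). *PTPN11* (SHP2) had the largest values there, 0.55 (adjusted p = 0.0591) and 0.50 (adjusted p = 0.18).

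None of 13 nectins and afadin partners was called, and the largest values were *RAPGEF2* at 0.41 (adjusted p = 0.179) for CDH2 and *LMO7* at 0.35 (adjusted p = 0.124) for Cx43 shRNA. Of 12 listed cadherins 4 had a row, and none was called. *CDH3* (P-cadherin) gave 0.40 (adjusted p = 0.156) and 0.28 (adjusted p = 0.475), and *CDH11* read 6.70, 6.40 and 7.01 in scramble and 6.77, 7.09 and 6.47 in CDH2 shRNA libraries, a difference of 0.08 (adjusted p = 0.822).

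**Figure D5:**
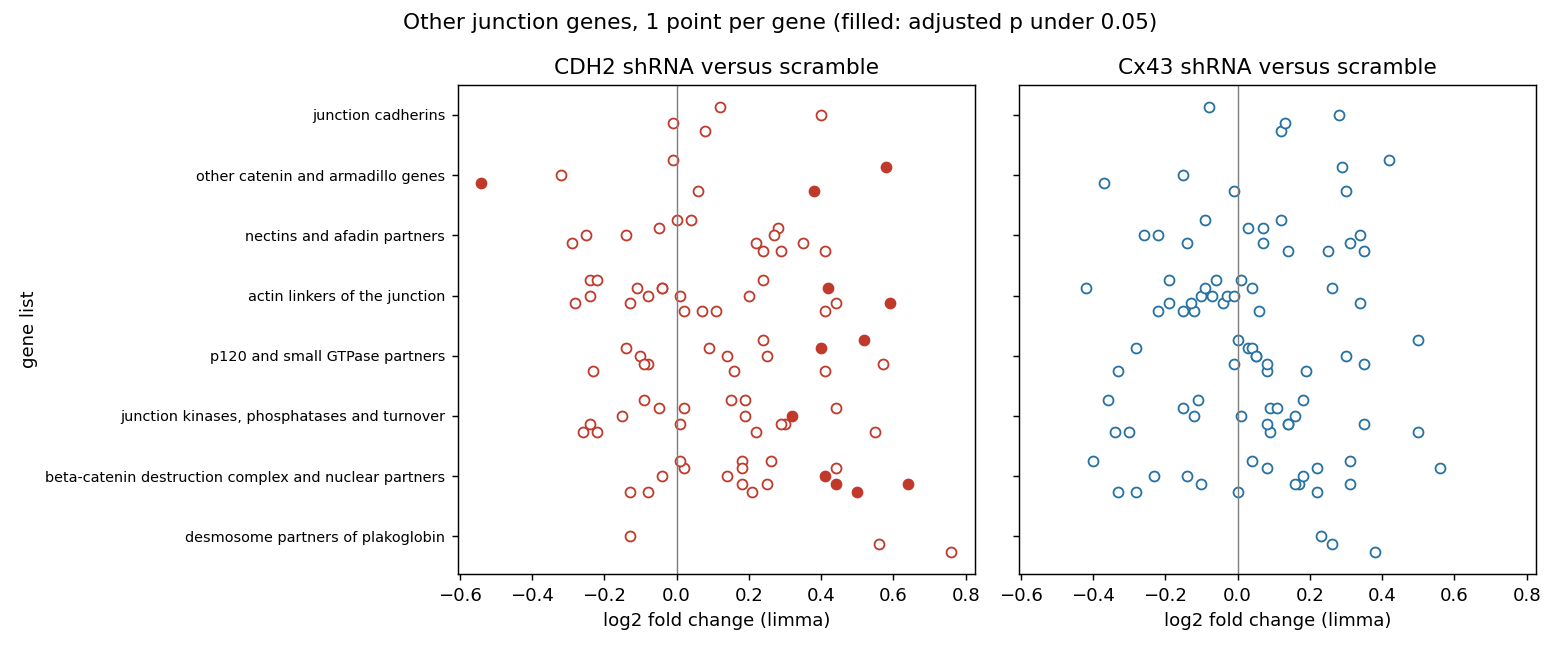
log2 fold change (x axis) of 93 other junction genes by list (y axis), CDH2 shRNA versus scramble on the left and Cx43 shRNA versus scramble on the right, with 1 point per gene and filled points for an adjusted p under 0.05. The left panel holds 12 filled points, 11 of them above 0, and the right panel none.

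The genes whose levels followed each member most closely over the 8 libraries were found by Pearson correlation, as a description without a test. For *JUP* they were *BFSP1* (r = 0.9992) and *APOBEC3F* (r = 0.9985), and for *CTNND1* they were *ARHGAP35* (r = 0.9997) and *EVI5* (r = 0.9991). *VCL* was followed by *PPFIA1* (r = 0.9993), *AFDN* by *PRKCI* (r = 0.9997) and *GLI3* (r = 0.9989), and *ARVCF* by *GPD1L* (r = 0.9989) and *TMED4* (r = 0.9983). *CTNNB1* was followed by *AHSA2P* (r = 0.9982) and *SUCLG2* (r = 0.9936), and *CTNNA1* by *FAM229A* (r = 0.9960) and *DIP2C* (r = 0.9946). The number of genes with r of at least 0.99 was 79 for *AFDN*, 72 for *VCL*, 33 for *CTNND1*, 18 for *ARVCF*, 9 for *JUP*, 3 for *CTNNB1* and 2 for *CTNNA1*. Among the 7 themselves, the highest values of r were 0.978 for *VCL* and *AFDN*, 0.936 for *CTNNB1* and *CTNNA1* and 0.923 for *CTNND1* and *VCL*, and the lowest was -0.743 for *JUP* and *AFDN*. The libraries share the run correction and its few directions of spread, so high values of r arise readily here.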

How the data were processed

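RNA was sequenced as single reads from 8 libraries of sorted MDA-MB-231 CSCs (3 scramble, 3 CDH2 shRNA and 2 Cx43 shRNA). Per the methods, the authors aligned reads with STAR (2.6.1 in the submitters' processing notes) to hg38, quantified genes by expectation maximisation in Partek Flow, removed a low-quality sample, removed low genes and took out the effect of sequencing run. The deposited values are log2(CPM + 1) per gene. Strand handling is not given in the sources used here.

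The values were used as deposited. They summed to 684411 to 727083 CPM per library and did not fall on steps of whole reads, so depth is unknown and no counting interval can be given. The 1 row without a gene name was left out, and 12939 genes were tested. limma 3.58.1 in R 4.3.3 was fitted to all 8 libraries with group and replicate number as terms, and p-values were adjusted by the Benjamini-Hochberg method over all genes (threshold 0.05). The second rule for calls also asked for the fold threshold stated in the methods for each knockdown (1.5 for Cx43). The methods give none for the direct comparison, where 1.5 was used as well. The replicate number was kept as a block because it was taken to be the sequencing run that the authors corrected for. The labels do not state this, and it was inferred from deviations that sum to at most 0.0001 within a replicate number. The deviations of same-numbered libraries correlate at -1 to 0.951. The correction makes them sum to 0, which forces the -1 at replicate number 3 and constrains the other values. The correlations therefore give no check of the pairing. With the block the residuals have 3 degrees of freedom but vary in 2 directions, so limma's p-values are somewhat too small and its intervals somewhat too narrow.

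Linear CPM was obtained from the log2 values and divided by the union of exons in GENCODE v44 (hg38) for levels per kb. Differences within a library are given without a test. The genes named are the 7 members, every gene called in a junction list or else its largest difference in each knockdown, and the 2 genes best correlated with each member. Some of these results are not reported here. Overlapping genes, *DSP*, *PERP*, *CDH11*, *ZEB1*, *SNAI2* and *TCF3* were named after their values were seen. Members and lists were chosen with earlier results of these data known.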

Additional observations from a re-analysis of the deposited data

How the results depend on the processing

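Of the recomputed differences of the 7 genes, 288 kept their direction and side of the threshold, 21 newly passed it, 7 no longer did and 17 turned sign. The *JUP* call in the CDH2 knockdown held in 9 of 16 alternatives. The causes were not tested beyond what each alternative itself changes. With the fold threshold left out, 1 of the 7 passed in the CDH2 knockdown. Depth is unknown, and the Cx43 group has 2 libraries.

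Without the replicate block (no pairing), calls in CDH2 shRNA versus scramble were 4 of the 7 genes, 42 junction list genes and 5607 of all genes. In Cx43 shRNA versus scramble they were 2, 19 and 3140, and between the knockdowns 17 list genes and 2784 of all genes. That fit counts more residual degrees of freedom than the corrected values vary in.

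With only the groups compared in the fit, calls were 0 of the 7, 0 list genes and 0 of all genes for CDH2 (limma), 3, 19 and 2807 for Cx43 shRNA, and 2 list genes and 559 of all genes between the knockdowns, where the *JUP* difference turned from -0.05 to 0.00. The correction for length and GC content, chosen after seeing the data, left 0 of the 7 called for CDH2, gave 2 list genes and 369 of all genes for Cx43 shRNA, and turned the direct differences of *JUP* to 0.03 and *AFDN* to -0.06. Length and GC content accounted for 1% to 36.5% of a library's deviations. Quantile normalization turned *CTNNA1* in Cx43 shRNA to -0.04. With the 75% of genes with the highest means, 4 of all genes were called for Cx43 shRNA, and *ARVCF* was not tested.

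Leaving out 1 library at a time gave 0 to 5 of the 7, 0 to 40 list genes and 0 to 5309 of all genes for CDH2. It gave 0 to 2, 0 to 11 and 0 to 2133 for Cx43 shRNA, and 0 to 13 list genes and 0 to 2131 of all genes between the knockdowns. Sign changes occurred for *CTNNB1* (-0.13 to 0.08) and *CTNNA1* (-0.20 to 0.05) in CDH2 shRNA and for *CTNNA1* (-0.09 to 0.10) and *CTNND1* (-0.10 to 0.26) in Cx43 shRNA. Between the knockdowns they occurred for *CTNND1* (-0.05 to 0.29), *JUP* (-0.29 to 0.20) and *AFDN* (-0.05 to 0.17). The highest counts came without the replicate 3 library of CDH2 shRNA or scramble, either of which removes that pair.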
